A study of Mus musculus with 43 samples.

Results

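Npvf encodes the precursor of the RFamide-related peptides, which are best known from hypothalamic neurons, and it was measured here in cultured mouse cortical astrocytes together with 9 other genes of secreted neuropeptides and granins. The set holds Npvf, the opioid precursors Pdyn and Penk, Npy, Sst, Calca, Adm, Vgf, Scg2 and Chga. These 10 of the 24537 genes in each deposited table were chosen by name, with results of these data already known, and the values that weighed in the choice are not stated. Npvf gave the set its name, so its levels are given as a description with no test. The fits for the other 9 genes are given with p-values adjusted over all genes tested, and they are no independent evidence that these genes were selected well.

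Neuropeptides are made as larger precursors, cut by prohormone convertases and carboxypeptidases in the regulated secretory pathway, and stored in dense-core vesicles until a stimulus releases them. Granins such as chromogranin A (Chga) and secretogranin II (Scg2) are acidic proteins of the same vesicles and are themselves cut into peptides. In the cortex most of these genes are known from neurons, with Sst and Npy marking interneurons, while astrocytes are known to make some of them, among them Penk and Adm.

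The study sequenced poly(A) RNA from 43 mouse astrocyte libraries in 9 groups, deposited as 3 tables of FPKM (fragments counted per transcript length and per mapped library size). The first table holds astrocytes immunopanned from the cortex at postnatal day 7 and kept for 12 days in defined serum-free medium, from wild-type mice (WT, n = 6) and from mouse models of Fragile X syndrome (FXS, n = 6), Rett's syndrome (RTT, n = 6) and Down's syndrome (DS, n = 4). The second holds WT astrocytes of the same kind left untreated (Alone, n = 6) or given the signalling protein BMP6 for the last 5 days (BMP6, n = 6), and each of the 6 culture numbers gave a library to both groups. The third compares 3 preparations with 3 libraries each: immunopanned astrocytes taken acutely (IP acute), immunopanned astrocytes after culture (IP cultured), and a cultured preparation that the labels call MD without saying what the letters mean. The labels name the disorder but neither the allele nor the strain, and give no age or culture time for the preparations. The disorder and BMP6 libraries are called biological replicates, whereas nothing says that the preparation libraries were separate cultures, so a p-value there reflects only how far these libraries scatter, and that scatter may be technical. Levels were compared only within a table.

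Library depth, estimated from the steps between low FPKM values, was 10.5 to 55.6 M reads with a median of 26.8 M, and the WT libraries were the shallowest group with a median of 18.2 M. The FXS and DS labels were checked against a gene of each disorder: Fmr1 was at 0.967 to 2.21 FPKM in FXS against 12.0 to 17.1 in WT, and App, a gene present in extra copy in Down's syndrome, at 276 to 652 in DS against 138 to 203. The astrocyte genes Aqp4, Gfap and Aldh1l1 were at 14.1 FPKM or more in every library. Xist was at most 0.012 FPKM in the RTT libraries and 0.195 to 13.4 in WT, so sex was not balanced between those groups. It was at 0.003 to 8.96 FPKM in FXS and 1.60 to 9.31 in DS. The Y-linked gene Ddx3y was at 2.70 FPKM or more in every WT library and at 0 to 5.92 in DS. A balance of sex is therefore not shown for DS and FXS either. The part of sex in the results was not tested. Because these are bulk samples, fewer cells of a type and less RNA per cell cannot be told apart.

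Stretches of 5 promoters are shown: those of Sst, Scg2, Calca and Chga because they hold a letter match to the cAMP response element or its core, and that of Npvf because it gives the set its name. They were picked after the search. The windows are RefSeq sequence of build GRCm38.p6, 5′ to 3′ on the gene's strand, from the 250 bases before the annotated start. Capitals mark TGACGTCA in Sst and Scg2, TGACG in Calca and Chga, and TATAAA in Npvf.
Sst, chr16:23890874-23890903, minus strand: gcctccttggcTGACGTCAgagagagagtt
Scg2, chr1:79440076-79440105, minus strand: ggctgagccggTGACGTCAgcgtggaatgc
Calca, chr7:114636407-114636433, minus strand: aagcacagaggTGACGcaatctgtctg
Chga, chr12:102554886-102554912, plus strand: gggcggtcctaTGACGtaatttcctgg
Npvf, chr6:50654458-50654485, minus strand: atctgtcacagTATAAAaccaccaagag
The capitals begin 48 bases before the start in Sst, 68 in Scg2, 65 in Calca, 44 in Chga and 29 in Npvf. Of 32851 mouse promoter windows of 250 bases, 1.55% held TGACGTCA on either strand, 17.8% held TGACG or its complement (the longer element contains both) and 12.4% held TATAAA or its complement. The promoter table matched 8 of the 10 genes (not Penk and Vgf), and no TGACG was found in the windows of Npvf, Pdyn, Npy and Adm. GGCGCC, the letters bound by BMP-activated SMADs, was found in the Sst and Scg2 windows and in 9.59% of all windows, and ACGTG, the hypoxia response core, in none of the matched windows and in 16.6% of all. A letter match describes the sequence and does not show that a factor binds there.

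Npvf was the most abundant of the 10 genes in every group of the disorder and BMP6 tables. In the WT libraries of the disorder table its lowest, median and highest levels were 36.1, 73.1 and 189 FPKM, in FXS 44.03, 91.6 and 231, and in RTT 65.3, 133 and 416. In DS the 4 libraries had 1235, 293, 754 and 180 FPKM. The highest DS library stood above every other library of the table, and the lowest lay just under the highest WT library, so the groups overlapped by that pair. Mean levels were 83.7 ± 55.4 FPKM in WT (SD, n = 6), 110.0 ± 68.5 in FXS (SD, n = 6), 167 ± 127 in RTT (SD, n = 6) and 616 ± 482 in DS (SD, n = 4). By mean FPKM, Npvf ranked 745th of all genes in WT, 485th in FXS, 238th in RTT and 40th in DS. Against WT the fitted log2 difference of log2(FPKM + 0.5) was 0.39 (SE 0.50) in FXS, 0.95 (SE 0.50) in RTT and 2.70 (SE 0.56) in DS. The neighbouring groups in the order WT, FXS, RTT, DS overlapped in each case, and within each of the 4 groups the highest library was 5.23 to 6.86 times the lowest.

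**Figure D1:**
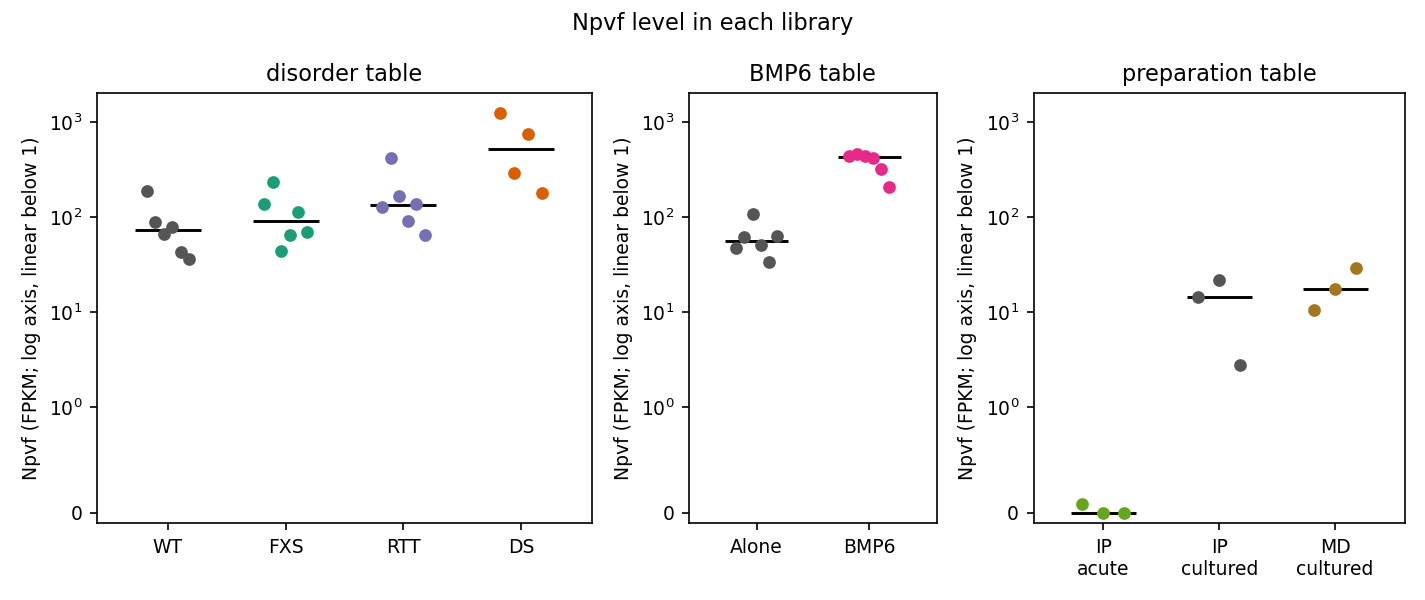
Npvf level in FPKM (vertical axis, logarithmic above 1 and linear below) in each of the 43 libraries, drawn as points by group, with horizontal lines at the group medians. The DS libraries reach 1235 FPKM but overlap the other disorder groups, all BMP6 libraries sit above all Alone libraries, and the 3 IP acute libraries sit at or near 0.

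In the BMP6 table Npvf was higher with BMP6 in all 6 cultures. The Alone libraries had 33.97 FPKM at the lowest, 56.3 at the median and 107 at the highest, and the BMP6 libraries had 205, 429 and 465, so that the groups did not overlap. Within cultures the ratio of BMP6 to Alone was 3.22 at the lowest, 7.90 at the median and 9.40 at the highest. The fitted log2 difference was 2.68 (SE 0.26), and the rank of Npvf by mean FPKM went from 988th in Alone to 68th with BMP6. The BMP target gene Id1 was at 34.9 to 127 FPKM in Alone and at 217 to 268 with BMP6. The astrocyte water channel Aqp4 was 103 ± 72.6 FPKM in Alone and 325 ± 135 with BMP6 (SD, n = 6 each). Of 11 astrocyte markers tested Aqp4 alone passed without a culture block (limma adjusted p = 0.0491), 5 were called higher and none lower in the paired fit, and the 12 markers on the list summed to 1121 to 2765 FPKM in Alone and 1870.4 to 3690.0 with BMP6. Of all genes, 15.1% were called without the block and 35.5% in the paired fit. Markers of other cell types lay mostly lower with BMP6: 6 of 6 oligodendrocyte lineage, 7 of 7 ependymal and 9 of 11 mural and fibroblast markers tested. None of these was called without the block. The paired fit called 2, 1 and 1 of them lower and none higher. The part of the astrocyte and other cell type markers in the Npvf values was not tested.

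In the preparation table Npvf was listed at 0.084, 0 and 0 FPKM in the 3 IP acute libraries, the highest of these amounting to an estimated 1.43 reads. It was at 14.4, 21.7 and 2.77 FPKM in IP cultured and at 10.6, 17.3 and 29.3 in MD cultured. Both cultured groups lay above every acute library, and they overlapped each other. No fold against IP acute is given, since most of its libraries are listed at 0. Between the cultured preparations the log2 difference was 0.82 (SE 0.65), and it was -0.008 without IP cultured 7.

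The known receptors of the Npvf peptides were near the lower end of detection in every group. Npffr1 did not exceed 0.241 FPKM in the disorder table, 0.382 in the BMP6 table and 0.501 in the preparation table, and Npffr2 did not exceed 0.032 in any library. Both lay under the filter in the disorder and BMP6 tables, where a gene had to reach an FPKM of 1 in at least 4 and 6 libraries.

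The genes whose level ran most like that of Npvf differed between tables. Over the 22 libraries of the disorder table the 5 highest Pearson correlations were with Me3, a malic enzyme (r = 0.92), Acbd4 (0.91), the protease Prss23 (0.89), the peptidase Cpq (0.88) and the ceramide synthase Cers4 (0.88), and within groups these were 0.80 to 0.89. Over the 12 libraries of the BMP6 table they were with the glucocorticoid receptor gene Nr3c1 (0.98), Prss23 (0.98), Serpinf1 (0.97), Abca8a (0.97) and the retinaldehyde dehydrogenase Aldh1a1 (0.97), with 0.71 to 0.87 within groups. Prss23 was in both lists. Over the 9 preparation libraries they were Snx33 (0.99), Adamtsl5 (0.98), Zfp281 (0.98), Tspan4 (0.98) and 4632427E13Rik (0.97). These correlations, and those with other members that follow, are descriptions over libraries that share their group differences. In the disorder table Npvf correlated at -0.20 with Pdyn, -0.31 with Calca and -0.21 with Adm, and in the BMP6 table at 0.46, 0.26 and -0.62. In the preparation table the values ran from -0.86 (Pdyn and Penk) to 0.73 (Calca), and within groups from -0.33 (Sst) to 0.59 (Scg2).

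Among the other 9 genes, Pdyn, Calca and Adm passed the filter in the disorder table, and none of the 3 passed the threshold of an adjusted p under 0.05 by limma in any disorder. In the FXS comparison 0.00782% of all genes passed it, in RTT 0.00782% and in DS 4.35%. At an unadjusted p under 0.05 the counts were 1 of 3 in FXS (Calca), 2 of 3 in RTT (Calca and Pdyn) and 1 of 3 in DS (Adm), beside 19.5%, 10.5% and 19.8% of all genes tested. With 3 genes, these counts show nothing particular to the set.

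Pdyn encodes prodynorphin, the precursor of the dynorphins, which act on the kappa opioid receptor. Its lowest, median and highest levels were 1.74, 4.70 and 5.75 FPKM in WT, 1.82, 2.74 and 4.79 in FXS and 1.05, 1.44 and 2.80 in RTT, and the DS libraries had 2.95, 2.79, 4.60 and 4.09. The RTT libraries were mostly low, but the 2 lowest WT libraries lay within their range. The log2 difference was -0.97 (SE 0.26) in RTT with a limma adjusted p of 0.47, and -0.35 (SE 0.26, adjusted p = 0.501) in FXS.

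Calca gives calcitonin and, by alternative splicing, the vasodilator CGRP, and the deposited row does not separate these products. It was at 1.26, 1.78 and 3.26 FPKM (lowest, median, highest) in WT, at 0.634, 1.26 and 1.98 in FXS and at 0.667, 0.942 and 1.84 in RTT, and at 1.00, 1.39, 2.08 and 1.11 in the DS libraries. All groups overlapped. The log2 difference from WT was -0.68 (SE 0.21) in RTT and -0.49 (SE 0.21) in FXS, with limma adjusted p-values of 0.47 and 0.205.

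Adm encodes adrenomedullin, a vasodilator peptide that is induced by hypoxia. It was at 6.56, 11.1 and 18.02 FPKM in WT, at 5.62, 9.02 and 12.0 in FXS and at 6.83, 11.2 and 16.1 in RTT, and the 4 DS libraries had 8.48, 5.34, 7.24 and 5.02. The DS libraries lay in the lower part of the WT range or under it. The log2 difference in DS was -0.70 (SE 0.28), with a limma adjusted p of 0.173. Of 10 hypoxia genes tested in DS, 1 rose and none fell: Egln3, an oxygen-sensing prolyl hydroxylase, from 7.05 ± 0.915 FPKM in WT (SD, n = 6) to 12.9 ± 2.91 in DS (SD, n = 4; adjusted p = 0.00121). The 11 genes on the list summed to 316 to 416 FPKM in WT and 314 to 437 in DS. Of all genes, 4.35% were called in DS.

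**Figure D2:**
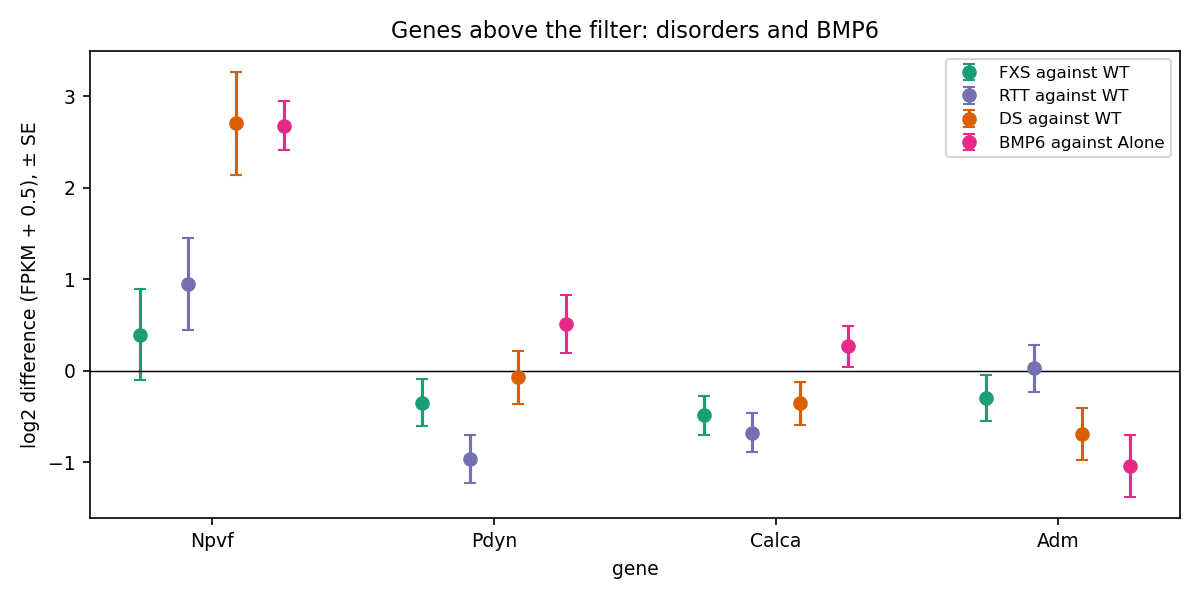
Fitted difference of log2(FPKM + 0.5) with its standard error for the 4 genes above the filter (horizontal axis), for each disorder against WT and for BMP6 against Alone (colours). Npvf differs most in DS (2.70) and with BMP6 (2.68), and Adm lies at -1.04 with BMP6.

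The remaining 6 genes lay under the filter in the disorder table. Sst was listed at 0 in all WT and FXS libraries and at no more than 0.062 FPKM in RTT and DS, a level of about 1 read. Penk was at 0.040 to 0.436 FPKM, Npy at 0 to 0.646 and Chga at 0.28 to 1.11 over the 22 libraries, with overlap of all groups. The following values come from the fit with no filter, in which 3.6% of genes were called in DS. Scg2 had 0.549, 0.465, 0.501 and 0.735 FPKM in the DS libraries and 0.089, 0.266 and 0.401 (lowest, median, highest) in WT. All 4 DS libraries lay above all WT libraries, at a low level in both. The log2 difference was 0.49 (SE 0.10), with a limma adjusted p of 0.00682. Vgf, a neurotrophin-inducible granin, had 0.332, 0.154, 0.116 and 0.106 FPKM in DS against 0.223, 0.488 and 0.723 in WT, and its log2 difference of -0.48 (SE 0.22) had an adjusted p of 0.252.

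Of 9 neuronal markers tested beside these values, 2 rose in DS and none fell. In DS 4.35% of all genes were called. The summed level of the 18 neuronal markers was 99.7 to 152 FPKM in WT and 110.2 to 158 in DS, and the interneuron gene Slc32a1 was at or near 0 in both (0 to 0.081 FPKM in WT, 0 in DS). Syt1, a calcium sensor of vesicle release, was 12.8 ± 12.4 FPKM in DS (SD, n = 4) against 0.387 ± 0.0525 in WT (SD, n = 6), and Gad1, a GABA-synthesising enzyme, 2.85 ± 0.922 against 0.589 ± 0.220. Syt1 reached an FPKM of 1 in no library outside DS, so it passed the filter only through DS, where it is high. It had to differ, so it is given as levels with no p, and the count above is no support. The limma adjusted p of Gad1 was 8.39e-05. No gene of the other cell type lists was called in the 3 disorders, but some lay to one side. All 5 microglial markers tested lay lower than in WT in DS, in FXS and in RTT (median log2 difference -1.10, -1.07 and -1.45), and the list summed to 2.00 to 31.1 FPKM in WT and 0.61 to 8.88 in DS. Of 12 mural and fibroblast markers tested, 12 lay lower in DS, 11 in FXS and 10 in RTT (median -0.67, -0.52 and -0.50). Of 12 ependymal markers, 12 lay higher in FXS and 10 in DS (median 1.15 and 0.36), while 10 lay lower in RTT (median -0.08). The part of these cell types in the values of Npvf and the other genes was not tested.

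The machinery that makes and stores neuropeptides was called in DS for a few genes. Of 15 processing enzymes and helpers tested, 2 rose and 1 fell, and of 17 other granins and dense-core vesicle genes 2 rose. The share of all genes called in DS, 4.35%, is the background to these counts. Scg5, the chaperone 7B2 of prohormone convertase 2, is on both lists and rose from 54.3 ± 10.7 FPKM in WT (SD, n = 6) to 183 ± 60.2 in DS (SD, n = 4), a log2 difference of 1.71 (SE 0.23) with a limma adjusted p of 5.11e-05. The peptide-degrading enzyme Mme (neprilysin) rose by 1.03 (SE 0.25, adjusted p = 0.0208), and Rab3d, a GTPase of secretory vesicles, rose by 0.54 (SE 0.13, adjusted p = 0.0202). Qpct, which forms the pyroglutamate end of some peptides, fell, with a log2 difference of -0.93, SE 0.19 and an adjusted p of 0.00699. None of the 5 neuropeptide receptors and 6 other precursors tested passed in DS. In FXS and RTT no gene of these 4 lists passed, with 3, 4, 3 and 2 genes of the receptor, enzyme, granin and precursor lists at an unadjusted p under 0.05 in FXS and 1, 4, 0 and 0 in RTT, out of 5, 15, 17 and 6 tested. The shares of all genes at that cut, 19.5% in FXS and 10.5% in RTT, are the background to these counts.

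Of the other 9 genes, Adm, Pdyn and Calca passed the filter in the BMP6 table. None of these 3 passed the threshold in the fit without a block, in which 15.1% of all genes were called, and 1 (Adm) had an unadjusted p under 0.05, as had 31.5% of all genes. Because the Alone and BMP6 libraries of a culture share a number and a batch label, the fit was also made with the culture number as a block. In that paired fit 35.5% of genes were called, Adm and Pdyn among them.

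Adm was lower with BMP6 in 6 of 6 cultures. The Alone libraries had 9.67, 12.1 and 32.1 FPKM (lowest, median, highest) and the BMP6 libraries 4.54, 7.91 and 13.4. In 2 cultures the untreated library stood well above the other 4, and within cultures the level was 1.32 to 3.70 times lower with BMP6. The log2 difference was -1.04, with SE 0.34 and a limma adjusted p of 0.0564 without the block, and SE 0.17 and an adjusted p of 0.00554 in the paired fit. Without Alone 76 or without BMP6 91 the unpaired fit also called it. Of 10 hypoxia genes tested, 3 rose and none fell without the block, where 15.1% of all genes were called. In the paired fit, where 35.5% were called, 3 rose and 1 fell. Slc2a1, the main glucose transporter of the blood-brain barrier, rose. Its log2 difference without the block was 0.67, with SE 0.15 and a limma adjusted p of 0.0128.

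Pdyn was higher with BMP6 in 5 of 6 cultures. Its levels were 0.315, 1.01 and 1.67 FPKM in Alone and 0.727, 1.24 and 2.79 with BMP6, and the culture that went the other way had 1.141 untreated and 0.892 with BMP6. The log2 difference of 0.51 had SE 0.32 and a limma adjusted p of 0.302 without the block, and SE 0.15 and an adjusted p of 0.0361 in the paired fit. Calca was at 0.608, 0.832 and 1.56 FPKM in Alone and at 0.626, 1.39 and 1.81 with BMP6, with a log2 difference of 0.26 (SE 0.22, adjusted p = 0.444).

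Chga, under the filter in this table, was lower with BMP6 in 6 of 6 cultures. It was at 0.526, 0.781 and 0.949 FPKM (lowest, median, highest) in Alone and at 0.102, 0.171 and 0.259 with BMP6. The groups did not overlap, and within cultures the level was 2.97 to 5.16 times lower. In the fit with no filter, in which 9.26% of genes were called, its log2 difference was -0.89 (SE 0.09), with a limma adjusted p of 0.000392. Of 7 neuronal markers tested without the block, Syp was called higher (11.1 ± 1.07 FPKM in Alone and 14.4 ± 2.15 with BMP6, limma adjusted p = 0.0339). Elavl4 was called lower (1.99 ± 0.543 and 0.853 ± 0.257; SD, n = 6 each). Elavl4 may have passed the filter only through Alone, where it is high, so it is given with no p. In the paired fit 1 marker was called higher and 3 lower. Rbfox3, under the filter, was at 0.133 to 1.58 FPKM in Alone and 0.012 to 0.199 with BMP6, while the sum of the 18 neuronal markers was 121 to 156 FPKM in Alone and 110.0 to 137 with BMP6. Beside these marker counts, 15.1% of all genes were called without the block and 35.5% in the paired fit. The part of neuronal RNA in the Chga values was not tested. Scg2 was at 0 to 0.923 FPKM in Alone and 0.144 to 0.283 with BMP6, Vgf at 0.121 to 0.510 and 0.133 to 1.12, Npy at no more than 0.338 and Penk at no more than 0.194, all with overlapping groups. Sst was listed at 0 in all 12 libraries.

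**Figure D3:**
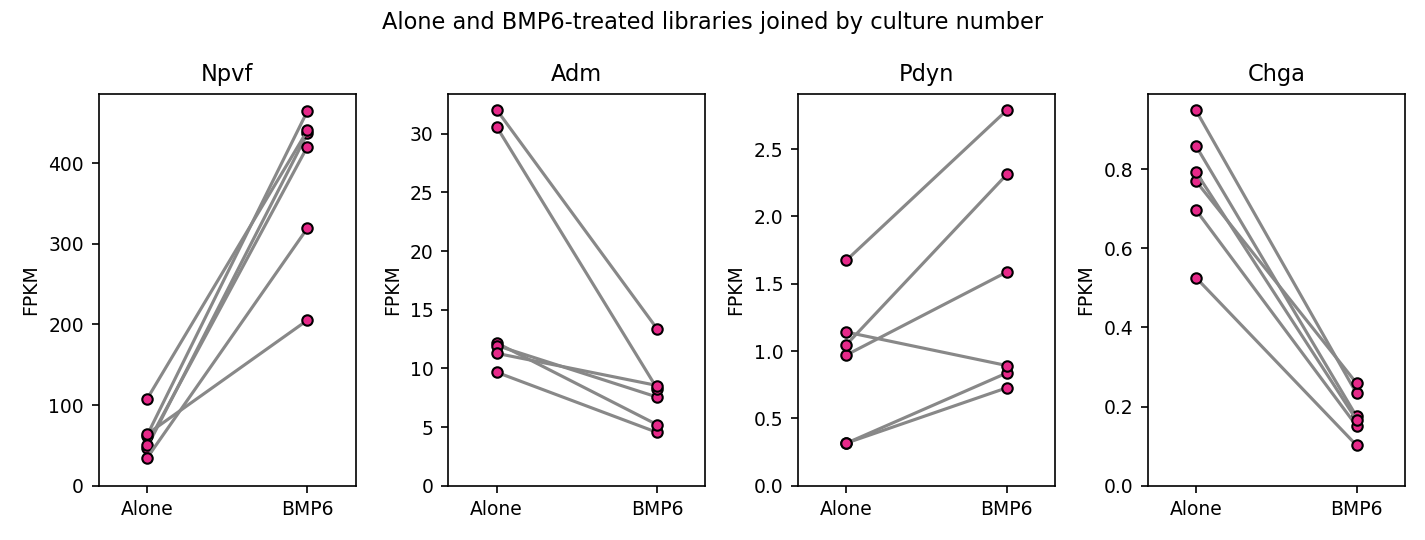
FPKM of Npvf, Adm, Pdyn and Chga (one panel each, linear axis from 0) in the Alone and BMP6 libraries, with lines joining the libraries of a culture number. All 6 lines rise for Npvf and fall for Adm and Chga, and 5 of 6 rise for Pdyn.

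Of 17 other granins and dense-core vesicle genes tested, 5 rose with BMP6 and 1 fell in the fit without a block, and 9 rose and 1 fell in the paired fit. Over all genes these fits called 15.1% and 35.5%, the background to this count and to those of the lists below. The SE and p-values of single genes that follow are from the fit without a block. Chgb, which encodes chromogranin B, rose from 2.30 ± 0.555 to 9.73 ± 4.89 FPKM (SD, n = 6 each), a log2 difference of 1.73 (SE 0.31) with a limma adjusted p of 0.00452. Cadps, which primes dense-core vesicles for release, rose from 2.55 ± 1.35 to 10.5 ± 3.02 FPKM (adjusted p = 0.00185), and Pcsk1n, an inhibitor of prohormone convertase 1, from 21.6 ± 2.63 to 41.0 ± 10.2 (adjusted p = 0.00357). Ica1, a protein of vesicle membranes, fell, with a log2 difference of -0.90, SE 0.16 and an adjusted p of 0.0051. Of 15 processing enzymes and helpers Pcsk1n, which is on both lists, was the only one to pass without the block, and 3 rose and 2 fell in the paired fit. Of 3 other precursors the endothelin gene Edn3 was the only one called in either fit, higher with BMP6 (0.600 ± 0.295 FPKM in Alone and 1.37 ± 0.547 with BMP6). Of 5 receptors Calcrl, the receptor shared by CGRP and adrenomedullin, was called lower without the block (2.78 ± 1.71 and 0.926 ± 0.363; SD, n = 6 each). The paired fit called 1 receptor in each direction. Edn3 in Alone and Calcrl with BMP6 averaged under the filter's FPKM of 1. Each may have passed it only through the group where it is high, so they are given with no p, and their calls are no support.

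In 6 of the 10 genes every acute library of the preparation table lay above every cultured library, as did 23.9% of the 14101 genes that passed the filter. All 10 genes passed the filter of an FPKM of 1 in at least 3 libraries there. Penk and Sst passed only through IP acute, and Calca only through MD cultured, where they are high. Each had to differ from the group it passed through, so its differences from that group are given as levels with no p. The counts below are no support for the set. Between IP cultured and IP acute 43.3% of all genes were called, between MD cultured and IP cultured 45.8%, and between MD cultured and IP acute 60.1%. Of the 9 genes tested, 1 was called higher and 7 (with Penk and Sst) lower in IP cultured than in IP acute. In MD cultured 7 (with Calca) were called higher and none lower than in IP cultured. Against IP acute, 2 (with Calca) were called higher and 6 (with Penk and Sst) lower in MD cultured. The 7 calls between the cultured preparations became 4 (Adm, Calca, Scg2 and Vgf) without IP cultured 7, MD cultured 1 or MD cultured 2. The median of all genes was -0.16 on the log2 scale in MD cultured against IP cultured and -0.24 against IP acute, and changes are to be read against that shift.

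Sst and Npy, the interneuron peptides, had the highest mean levels of the set in acutely isolated cells. Sst had 24.2, 121 and 37.5 FPKM in IP acute, was listed at 0 in all 3 IP cultured libraries, and had 3.74, 2.63 and 0.499 in MD cultured. The 3 groups did not overlap. No fold is given against the group listed at 0. Npy had 33.3, 134 and 45.6 FPKM in IP acute, 0.923, 3.30 and 0.744 in IP cultured and 10.02, 6.96 and 4.43 in MD cultured. Its groups did not overlap either, and the same acute library, number 4, was highest for both genes. The log2 difference was -4.98 (SE 0.59, adjusted p = 0.000328) between IP cultured and IP acute and 1.95 (SE 0.59, adjusted p = 0.0256) between MD cultured and IP cultured.

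The opioid precursors were also highest in IP acute. Penk, the precursor of the enkephalins, had 12.6, 12.0 and 5.31 FPKM in IP acute, 0.299, 0.067 and 0.221 in IP cultured and 1.09, 0.841 and 0.843 in MD cultured. The groups did not overlap, and the log2 difference between MD cultured and IP cultured was 1.04 (SE 0.32, limma adjusted p = 0.0263). Pdyn had 8.00, 7.35 and 11.1 FPKM in IP acute, 0.709, 3.34 and 1.28 in IP cultured and 1.28, 1.35 and 0.621 in MD cultured. The cultured groups overlapped each other and lay under all acute libraries, with a log2 difference of -2.18 (SE 0.41, adjusted p = 0.00317) for IP cultured and -2.57 (SE 0.41, adjusted p = 0.000818) for MD cultured.

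The granins fell from IP acute to IP cultured and stood in between or close to the acute level in MD cultured. Vgf had 10.4, 18.045 and 7.27 FPKM in IP acute, 0.478, 0.204 and 0.346 in IP cultured and 8.72, 10.2 and 4.54 in MD cultured. IP cultured stood alone at the low end, and the other groups overlapped (log2 difference -0.55, SE 0.37, limma adjusted p = 0.229). Scg2 had 25.99, 29.1 and 11.4 FPKM in IP acute, 0.040, 0.921 and 0.066 in IP cultured and 3.77, 5.20 and 8.72 in MD cultured. Its log2 difference was -4.80 (SE 0.49, adjusted p = 0.000156) between IP cultured and IP acute and 3.00 (SE 0.49, adjusted p = 0.00176) between MD cultured and IP cultured. Chga had 48.9, 51.8 and 24.5 FPKM in IP acute, 1.63, 5.55 and 3.50 in IP cultured and 9.51, 6.43 and 6.56 in MD cultured. Its groups did not overlap, but MD cultured against IP cultured missed the threshold (log2 difference 1.08, SE 0.41, adjusted p = 0.0584), while the authors' deposited table gives that comparison an adjusted p of 0.0270.

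**Figure D4:**
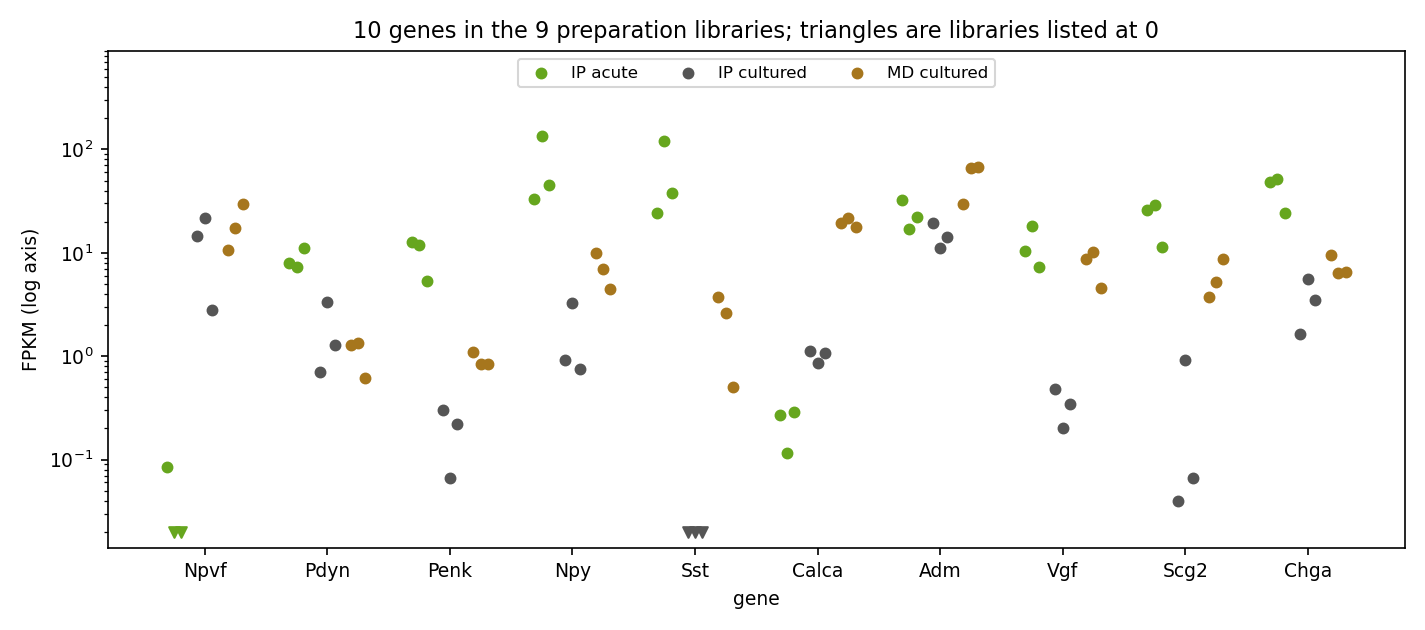
FPKM on a logarithmic axis of the 10 genes (horizontal axis) in the 9 preparation libraries, with colours for the groups and triangles at the bottom for libraries listed at 0. Npvf and Calca are lowest in IP acute, and Pdyn, Penk, Npy, Sst, Scg2 and Chga are highest there.

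Calca and Adm, the vasodilator peptides, were highest in MD cultured. Calca had 0.272, 0.115 and 0.291 FPKM in IP acute, 1.13, 0.868 and 1.07 in IP cultured and 19.5, 21.5 and 17.8 in MD cultured. The 3 groups were apart and narrow, with a log2 difference of 1.07 (SE 0.17, limma adjusted p = 0.00156) between IP cultured and IP acute. Calca passed the filter only through MD cultured, so the differences of MD cultured are given as levels with no p. Adm had 32.2, 17.1 and 22.4 FPKM in IP acute, 19.4, 11.1 and 14.3 in IP cultured and 29.7, 65.6 and 68.2 in MD cultured. MD cultured lay above IP cultured (1.77, SE 0.36, adjusted p = 0.00471), overlapped IP acute (1.13, SE 0.36, adjusted p = 0.0246), and lost the latter call without IP acute 4, IP acute 7, MD cultured 2 or MD cultured 3; IP cultured did not pass against IP acute (-0.65, SE 0.36, adjusted p = 0.18). Of 11 hypoxia genes, 3 were called higher and none lower in MD cultured than in IP cultured, beside 45.8% of all genes. Ndrg1 was among the 3 (151 ± 28.2 against 13.4 ± 7.07 FPKM, SD, n = 3 each). The part of the hypoxia genes in the Adm values was not tested. Receptor components for the Calca and Adm peptides differed too. Ramp1 was higher in MD cultured than in IP cultured (114 ± 6.64 against 43.4 ± 12.7 FPKM, limma adjusted p = 0.000645). Calcrl, the component they share, was lower (0.154 ± 0.0750 against 8.45 ± 3.84 FPKM, SD, n = 3 each).

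Markers of other cell types differed between the same groups. The 18 neuronal markers summed to 505 to 1402 FPKM in IP acute, 184 to 198 in IP cultured and 155 to 247 in MD cultured, and 17 of 18 were called lower in IP cultured than in IP acute. Of the 18, Rbfox3, Syt1, Gad2 and Slc32a1 passed the filter only through IP acute, where they are high, so that count is no support. Of all genes, 43.3% were called between IP cultured and IP acute and 45.8% between MD cultured and IP cultured. In MD cultured against IP cultured 13 of the 18 lay higher and 5 lower, of which 3 were called higher, among them Stmn2 (81.9 ± 17.3 against 1.97 ± 1.46 FPKM; SD, n = 3 each), and 2 lower. The 9 endothelial markers summed to 819 to 1527 FPKM in IP acute and 2.31 to 8.20 in IP cultured and 7.50 to 16.0 in MD cultured. The 11 microglial markers summed to 139.9 to 1539 in IP acute, 72.2 to 226 in IP cultured and 27.6 to 90.9 in MD cultured, and the 12 ependymal and ciliated cell markers to 42.3 to 50.1 in IP acute, 86.1 to 248 in IP cultured and 291 to 616 in MD cultured. The 12 immediate early and CREB target genes respond to cell stimulation. They summed to 5888 to 9078 FPKM in IP acute, 136 to 187 in IP cultured and 233 to 604 in MD cultured. All 12 lay lower in IP cultured than in IP acute, and 11 of them were called. Fosb was at 0.660 ± 0.199 FPKM in IP cultured and 703 ± 170 in IP acute (SD, n = 3 each). Such genes may have passed the filter only through IP acute, where they are high, so that count is no support. The 11 oligodendrocyte lineage markers summed to 1252 to 1635 FPKM in IP acute, 2162 to 4181 in IP cultured and 454 to 718 in MD cultured: 7 were called higher and 3 lower in IP cultured than in IP acute, and 11 of 11 lower in MD cultured than in IP cultured. Of the 12 astrocyte markers 1 was called higher and 6 lower in IP cultured than in IP acute, and 4 higher and 2 lower in MD cultured than in IP cultured. Of the 13 mural and fibroblast markers, 2 were called higher and 4 lower in the first comparison, and none higher and 4 lower in the second. No marker of these 8 lists was at 0 in all libraries of a preparation. In the other counts of these lists, a gene under an FPKM of 1 in the lower group may have passed the filter only through the higher group. Those counts are no support either. The part of these 8 lists in the results was not tested.

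The other genes of the peptide pathway were counted on lists. Of 16 other neuropeptide precursors tested, 14 were called lower in IP cultured than in IP acute and none higher, among them Cck, a peptide of cortical neurons (0.140 ± 0.181 against 40.9 ± 27.8 FPKM; SD, n = 3 each), and of 21 other granins and dense-core vesicle genes 17 were called lower and 1 higher. Of 21 processing enzymes and helpers 11 were called lower, among them the convertases Pcsk1 (0.0537 ± 0.0521 against 4.48 ± 2.07 FPKM) and Pcsk2 (1.28 ± 0.683 against 21.6 ± 10.6), and of 9 receptors 7 were called lower, among them Sstr1, a somatostatin receptor (1.86 ± 0.342 against 19.1 ± 4.79). The medians of the 4 lists were -2.88, -1.71, -0.76 and -2.12 on the log2 scale, beside -0.04 for all genes tested. Of all genes, 43.3% were called in this comparison. Of 53 other precursors listed, 16 passed the filter. Genes near 0 in IP cultured, Pcsk1 among them, may have passed it only through IP acute, where they are high. Such genes had to be lower in culture, so these counts and medians are no support for a change of the pathway. In MD cultured against IP cultured 4 precursors were called higher and 1 lower, 3 vesicle genes higher and 4 lower, 4 enzymes and helpers higher and 4 lower, and 1 receptor higher and 3 lower. Of all genes, 45.8% were called in that comparison, so the counts show nothing particular to these lists. Edn3 (41.3 ± 16.7 against 0.690 ± 0.0996 FPKM) and the natriuretic peptide gene Nppc (11.7 ± 3.55 against 0.309 ± 0.206) were among the higher precursors, and Rab27b, a GTPase that docks dense-core vesicles, was higher among the vesicle genes (22.7 ± 6.00 against 0.974 ± 0.622; SD, n = 3 each).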

How the data were processed

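Stranded poly(A) RNA libraries of mouse cortical astrocytes were sequenced as single-end reads of 50 bases. Tools listed in the submitters' processing notes are HOMER 4.10.4, DESeq2 1.14.1, STAR 2.5.3a and FastQC 0.11.8, with build mm10. The disorder and BMP6 tables hold FPKM per the file headers. The header of the preparation table names no unit, and its deposited values were read as FPKM from its layout. The authors' log2 fold changes and adjusted p-values in the deposited tables were used only where named. Here, log2(FPKM + 0.5) was fitted with limma 3.58.1 in R 4.3.3, 1 fit per table over all its groups, on genes that reached an FPKM of 1 in no fewer than 4 (disorder), 6 (BMP6) or 3 (preparation) libraries: 12780, 12185 and 14101 genes. P-values were adjusted by Benjamini-Hochberg over all genes tested, with a threshold of 0.05. FPKM is no count, so no count test was run. Depth was estimated from whole-read steps in low values, of which 72.5% to 77.7% were whole within 0.1 read. The script was tested on simulated data.

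The members and lists were chosen with earlier results of these data known. All members are described. Of each list up to 4 called genes were eligible to be named, and of genes like Npvf the 5 with the highest Pearson correlation. BMP6 and Alone libraries share culture numbers and batch labels, and same-numbered deviations from the group means correlated at 0.41 to 0.78 in 6 pairs. They were taken as paired only in the fit with the culture number as a block, called the paired fit. The main BMP6 fit held no block. BMP6 values of SE and p not said to be from the paired fit ignore the pairing. Alternatives were the pseudocount, the filter, the scaling, the groups in the fit, the block and leaving out each library. The corresponding check of the RTT label is not reported here.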

Additional observations from a re-analysis of the deposited data

Results flagged for a closer look

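In 4 of 56 groups of 4 to 10 libraries tested for the 10 genes, 1 library lay far from the others of its group by Dixon's criterion, which chance meets in about 1 in 20 groups. Npvf was at 189 FPKM in WT 22, the library that overlaps the DS range, and at 416 FPKM in RTT 20. In RTT 44, Npy was at 0.278 FPKM and Calca at 1.84 FPKM, each the highest of its group.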

How the results depend on the processing

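Of 616 alternative values over 46 log2 differences of single members, 573 kept their direction and their side of the threshold, 20 lost a call, 7 gained one, 13 changed sign and 3 values of Npvf without a test moved by more than their spread. Without the filter on low values the count of called members went from 0 to 1 in DS (Scg2) and from 0 to 1 with BMP6 (Chga). With the culture number as a replicate block 2 members were called with BMP6 (Adm and Pdyn), and leaving out single libraries gave 0 to 1 (Adm). In MD cultured against IP cultured, leaving out single libraries gave 4 to 7 called members. Acute and cultured immunopanned libraries share only a number, with correlations of -0.05 to 0.09, and a replicate block there gave 9 called members in place of 8. Sign changes came with leaving out single libraries, over ranges of -0.11 to 0.17 for Adm in RTT, -0.26 to 0.0398 for Pdyn in DS, -0.76 to 0.0772 for Pdyn and -0.008 to 1.38 for Npvf in MD cultured against IP cultured. The cause was not tested. Without WT 33, FXS 31 and DS 32, an alternative chosen after seeing the data, 0 members were called in the 3 disorders by limma. At the depths here the genes under the filter rest on few reads, and Scg2 in DS on an estimated 31.2 to 47.7. The list counts with a replicate block were also added after seeing the data.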
